A study of Mus musculus with 7 samples.

Results

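The genes described here are *Trpm5*, *Dclk1*, *Pou2f3*, *Avil*, *Il25*, *Gnat3*, *Gng13*, *Alox5ap*, *Lrmp* and *Rgs13*, 10 of the 20839 genes listed in droplet scRNA-seq libraries of the mouse thymic epithelium, selected by name as chemosensory and effector genes of tuft cells. They were read in the 8220 cells, of 8453, in which no unique molecular identifier (UMI, a tag that counts a single captured RNA molecule) of *Ptprc*, the gene of the leukocyte protein CD45, was found. Of these cells, 2151 held a UMI of *Trpm5* or *Dclk1* and are called gated cells, and 6069 held neither and are called other cells. Since *Trpm5* and *Dclk1* made the gate, their values are given as a description, and the remaining 8 genes were compared between the classes.

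The study asked how thymic epithelial cells (TECs) arise and how they return after RANK ligand has been blocked. Every library holds EpCAM+ CD45- sorted cells of the pooled thymi of 3 C57BL/6 mice, so each condition is 1 library and conditions were set side by side without a test. Mice given 3 treatments of 100 µg of isotype control antibody were taken at week 2 (4 weeks of age) and week 10 (12 weeks of age), and mice given the same dose of anti-RANKL at weeks 2, 4, 6 and 10 (4, 6, 8 and 12 weeks of age). The seventh library, the *Aire* trace, comes from mice 6 weeks of age that carry Aire-CreERT2 and the R26-CAG-Stopfl-zsGreen reporter and received 2 mg tamoxifen every other day over 10 days, so that the reporter marks cells in which *Aire* was active when tamoxifen was given, and their descendants. Shares below are shares of sequenced cells and say nothing of the number of cells per thymus.

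Tuft cells are rare epithelial cells of gut, airway and thymic medulla that sense small molecules with the machinery of taste cells. In that machinery a receptor acts through a G protein to which the alpha subunit gustducin (*Gnat3*) and the gamma subunit *Gng13* belong, phospholipase C and calcium release follow, and the cation channel *Trpm5* opens. *Pou2f3* is the POU homeodomain transcription factor that the lineage depends on, *Il25* is the cytokine through which tuft cells reach type 2 lymphoid cells, and *Alox5ap* encodes FLAP, which hands arachidonic acid to 5-lipoxygenase for leukotriene synthesis. *Avil* encodes the actin-binding protein advillin, *Dclk1* a microtubule-associated kinase, *Rgs13* a regulator of G protein signalling, and *Lrmp* an endoplasmic reticulum protein found in lymphoid and taste cells.

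*Pou2f3* binds the octamer, a short DNA motif, and the stretch before the start of 6 of the 10 genes could be read from RefSeq (GRCm38.p6), with 8 starts in all because *Dclk1* and *Gng13* have 2 each. The 7 letters ATGCAAA of the octamer were looked for on both strands in the 250 bases before each start and were found before *Avil* alone, in 1 of the 8 windows, against 4.12% of the 32851 windows of all genes. The 8 letters ATGCAAAT, which contain the shorter run, were in none of the 8 and in 1.6% of all windows. The windows of *Avil* (chr10:127000459-127000708, + strand), with 2 matches in capitals, and of *Trpm5* (chr7:143094643-143094892, - strand), with none, are shown 5′ to 3′ because *Avil* was alone in holding the letters and *Trpm5* is a gate gene.
*Avil*: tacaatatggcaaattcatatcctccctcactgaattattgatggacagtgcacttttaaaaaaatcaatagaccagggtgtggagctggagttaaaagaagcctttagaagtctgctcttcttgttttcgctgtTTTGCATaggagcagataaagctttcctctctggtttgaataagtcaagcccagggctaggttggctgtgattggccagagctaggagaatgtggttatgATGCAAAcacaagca
*Trpm5*: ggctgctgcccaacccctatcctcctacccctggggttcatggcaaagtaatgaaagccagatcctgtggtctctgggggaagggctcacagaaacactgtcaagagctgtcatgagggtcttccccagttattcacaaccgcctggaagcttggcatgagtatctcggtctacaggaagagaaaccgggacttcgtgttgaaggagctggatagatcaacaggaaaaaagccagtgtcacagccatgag
The match that reads ATGCAAA began 15 bases before the start of *Avil*, and the one that reads TTTGCAT, its reverse complement, 115 bases before it. *Avil* itself lies at chr10:127000709-127020994 and *Trpm5* at chr7:143069153-143094642 (GENCODE vM21, GRCm38). A match is a run of letters and was not tested for binding.

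The libraries held 730 cells (anti-RANKL week 6) to 1475 cells (anti-RANKL week 4), with a median of 4299.5 UMIs per cell (anti-RANKL week 6) to 16809 (isotype control week 2), so a gene missed in a shallow library may be present. Shares are therefore also given after each cell was thinned at random to 2000 UMIs, which left out 116 cells of anti-RANKL week 4 and 61 of week 6. All classes, the rule on *Ptprc* among them, were drawn again from the thinned counts, so a thinned class need not hold the same cells. Cells with *Trpm5* and *Ptprc* went from 90 to 26, and cells of the *Aire* trace without *Ptprc* from 1318 to 1364. In total 50 barcodes occurred in more than 1 library, at most 7 in any pair of libraries. Intervals are exact binomial 95% intervals and cover counting error only. Epithelial genes (*Epcam*, *Cdh1*, *Krt8*, *Krt18*) summed to between 33.4 and 59.2 UMIs per 10000 in the *Trpm5*-positive cells of the 7 libraries and to between 30.9 and 44.4 in the other cells, and all 4 were detected in both.

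*Dclk1* and *Gng13* were found in the most cells of the 10 genes and *Il25* and *Gnat3* in the fewest. Over all 8220 cells, *Dclk1* had a UMI in 23.4% (95% interval 22.5 to 24.3), *Gng13* in 21.9%, *Lrmp* in 9.33%, *Avil* in 8.13%, *Pou2f3* in 7.38%, *Rgs13* in 6.86%, *Trpm5* in 6.63% (6.10 to 7.19), *Alox5ap* in 6.37%, *Gnat3* in 2.45% and *Il25* in 2.03%. Neighbours in this order from *Lrmp* to *Alox5ap* overlap in their intervals, while *Dclk1* and *Gng13*, whose intervals overlap each other, stand above the rest and *Gnat3* and *Il25* below. Thinned to 2000 UMIs per cell, *Gng13* (9.88%) was in more of 8189 cells than *Dclk1* (8.89%).

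For reference, the same shares were taken in 73 cells with a *Ptprc* UMI and a UMI of *Cd3e*, *Cd3d* or *Cd3g*, called T cells here. Their median was 9422 UMIs, against 8014.5 in the 8220 cells. They were not free of epithelial RNA, with *Epcam* in 67.1% and *Krt8* in 78.1% of them, against 88.7% and 96.8% of the other cells. *Dclk1* was found in 26.0% of the T cells (16.5 to 37.6), *Gng13* in 20.5% (12.0 to 31.6), *Trpm5* in 9.59% (3.94 to 18.8) and *Il25* in 1.37%. For none of the 10 genes did the share over all cells lie above the T cell interval. With 73 T cells that hold epithelial RNA too, this comparison cannot tell background from expression in the pooled shares. *Lrmp*, which lymphoid cells are known to express, was in 39.7% of the T cells. Among the 67 T cells with fewer than 3 of the other 8 genes, *Trpm5* was in 2.99% and *Dclk1* in 20.9%, at a median of 9147 UMIs. At 2000 UMIs per cell *Trpm5* was in 3.25% and *Dclk1* in 8.89% of 8189 cells and in none of 32 T cells, which allows up to 9.38%.

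The *Trpm5*-positive cells stood above the T cells. The *Dclk1*-only cells did not before thinning, and the class drawn again after thinning did so for 3 genes. In 545 *Trpm5*-positive cells (median 9808 UMIs), *Gng13* was found in 68.8%, *Lrmp* in 60.0%, *Avil* in 59.1%, *Dclk1* in 57.8%, *Rgs13* in 54.5%, *Alox5ap* in 48.3%, *Pou2f3* in 41.5%, *Gnat3* in 26.4% and *Il25* in 19.6%, each above the upper bound of the T cell interval. In 1606 *Dclk1*-only cells (median 10217 UMIs) the 8 genes were found in 22.6% (*Gng13*) to 1.06% (*Gnat3*) of cells, and none lay above the T cell interval. With cells thinned to 2000 UMIs and classed again, *Avil* was in 13.5%, *Gng13* in 16.9% and *Alox5ap* in 10.92% of 586 *Dclk1*-only cells, above the upper bounds of the 32 thinned T cells (10.9, 16.2 and 10.89%), narrowly so for the last 2. Not all of these 586 are among the 1606, since they held 54 *Gnat3* UMIs against 35 before thinning. The shares therefore do not show the unthinned *Dclk1*-only cells above the T cells. In 6069 other cells (median 7380 UMIs) the 8 genes were found in 17.5% (*Gng13*) to 0.659% (*Gnat3*).

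Cells with *Trpm5* carried the other genes together, and cells with *Dclk1* alone mostly did not. Of the 315 cells with both gate genes, 77.8% (72.8 to 82.2) had a UMI of at least 3 of the other 8 genes, and the median cell had 6. Of the 230 cells with *Trpm5* and no *Dclk1*, 37.8% (31.5 to 44.4) reached 3. Of the 1606 cells with *Dclk1* and no *Trpm5*, 3.42% (2.59 to 4.43) did, against 1.42% (1.14 to 1.75) of the 6069 other cells and 6 of the 73 T cells (8.22%). The distribution in cells with both gate genes had 2 modes, with 62 cells at 0 or 1 gene and 217 cells at 5 to 8, and few between.

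**Figure D1:**
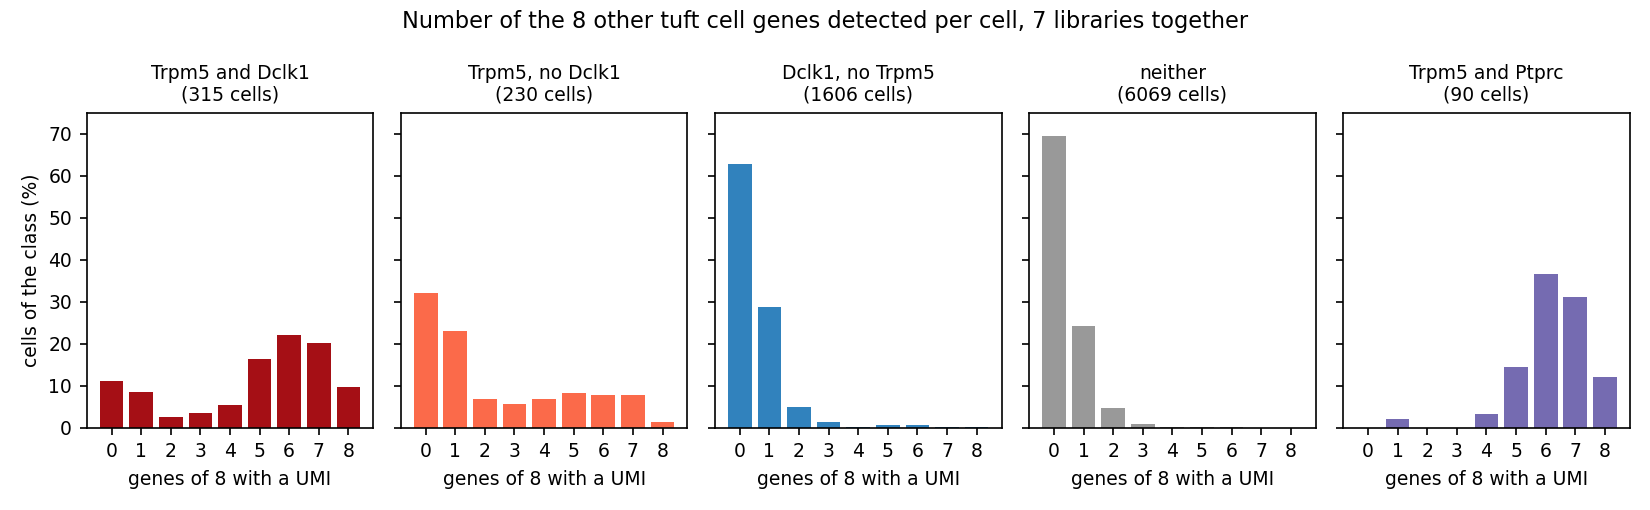
Number of the 8 genes other than *Trpm5* and *Dclk1* with a UMI per cell (x axis), as percent of the cells of each class (y axis), with the 7 libraries together. Cells with *Trpm5* and *Dclk1* and cells with *Trpm5* and *Ptprc* peak at 6 genes, while cells with *Dclk1* alone and cells with neither peak at 0.

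The number of UMIs of the gate gene separated cells further. Among cells with exactly 1 *Trpm5* UMI, 28.0% of 275 (22.8 to 33.7) held at least 3 of the other 8 genes, and among cells with 2 or more, 94.4% of 270 (91.0 to 96.9). For *Dclk1* without *Trpm5* the same step went from 1.84% of 1085 cells to 6.72% of 521. For *Dclk1* whether or not *Trpm5* was found, it went from 4.55% of 1164 to 32.6% of 757.

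After thinning to 2000 UMIs and drawing the classes again, the order was the same. At least 3 genes were found in 95.1% of 142 cells with both gate genes, 49.2% of 124 with *Trpm5* alone, 12.5% of 586 with *Dclk1* alone and 1.01% of 7337 with neither. No T cell of 32 reached 3 genes, a count of 0 that allows up to 9.38%. Read from the other side, 473 cells without a *Ptprc* UMI held at least 3 of the 8 genes and are called co-detecting cells below. Of these 70.2% had *Trpm5* (60.0 to 82.1% across the libraries), 63.4% *Dclk1* (53.8 to 77.8%), 51.8% both and 18.2% (86 cells) neither. The gate therefore left out 86 of the 473 cells. Which gate gene was found in more of these cells depended on depth and library, since at 2000 UMIs per cell *Dclk1* was in 60.6% and *Trpm5* in 57.1% of 343 co-detecting cells, and in anti-RANKL week 10 *Dclk1* was the more frequent before thinning too (67.8% against 60.0%).

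Each gene was then read in cells chosen by the others. In cells with at least 3 of the other 7 genes outside the gate, against cells with none, *Gng13* was found in 93.3% and 16.5%, *Lrmp* in 83.9% and 4.36%, and *Avil* in 79.4% and 3.32%. *Rgs13* was found in 75.6% and 2.61%, *Alox5ap* in 62.9% and 2.56%, and *Pou2f3* in 56.3% and 3.91%. *Gnat3* was found in 32.8% and 0.392%, and *Il25* in 26.2% and 0.430%. Each gene was thus read in its own set of cells, where the taste G protein gamma subunit was found in most and gustducin and the cytokine in a minority, at a depth that cannot show whether the rest lack the transcript. Across the libraries the share with *Il25* went from 9.09% to 34.8% and that with *Gng13* from 88.1% to 100%.

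In pairs, at 2000 UMIs per cell, all 45 pairs of the 10 genes met in one cell more often than the product of their shares within each library gives, by 3.23 to 16.6 times with a median of 9.77, and 32 of the 45 did so in every library. The lowest ratio was that of *Dclk1* with *Gng13* (233 cells against 72.0), the 2 genes found in the most cells. The highest was that of *Il25* with *Gnat3* (19 cells against 1.15), which rests on few cells. The 9 pairs with *Dclk1* had a median of 5.53 and the 28 pairs of the 8 genes outside the gate 11.7. *Trpm5* met *Alox5ap* in 154 cells against 11.2 and *Avil* in 171 against 13.5. Cells of 1 pool share their library, so the ratios are a description.

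**Figure D2:**
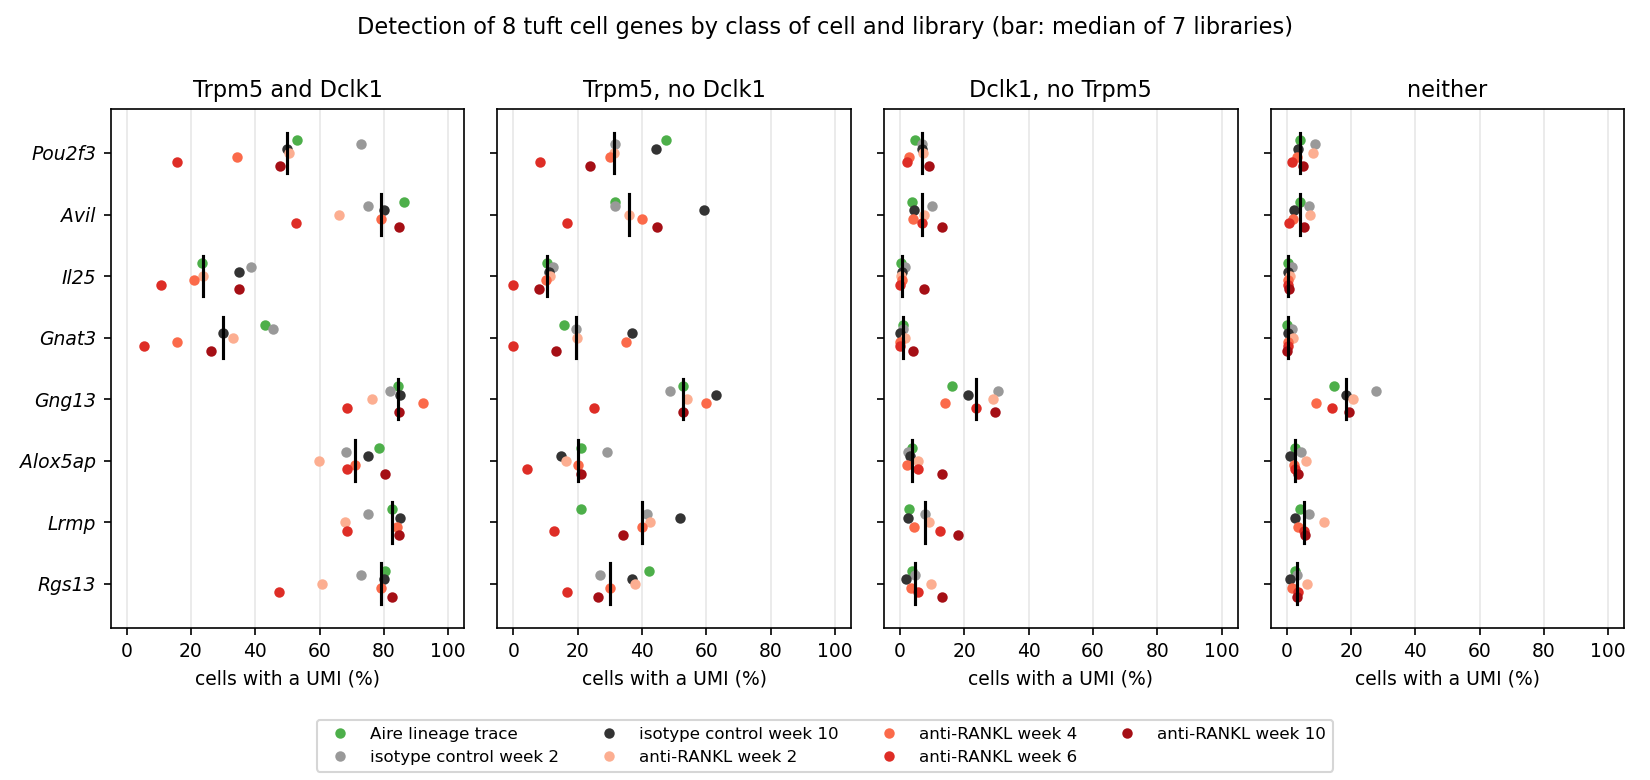
Percent of cells with a UMI of each of 8 genes (x axis) in 4 classes of cells without *Ptprc*, 1 point per library and a bar at the median of the 7 libraries. In cells with *Trpm5* and *Dclk1* the median of *Gng13*, *Lrmp*, *Avil*, *Rgs13* and *Alox5ap* lies above 70%, while with *Dclk1* alone every gene other than *Gng13* has a median under 10%.

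By library, the share of *Trpm5*-positive cells with *Dclk1* had a lowest, median and highest value of 42.6%, 54.8% and 72.9%. For *Avil* these were 32.6%, 65.5% and 71.4%, against 0.681%, 4.25% and 7.15% in other cells. For *Il25* they were 4.65%, 20.0% and 25.9% against 0.289%, 0.545% and 1.65%. In levels, *Trpm5* itself stood between 1.91 and 3.98 UMIs per 10000 in the cells it chose. UMIs count captured molecules whatever the length of the transcript. How well each gene is captured was not examined, so an order between genes is one of captured molecules.

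The other genes followed the same order in level. In UMIs per 10000 UMIs of the *Trpm5*-positive cells, *Gng13* was highest, with a lowest, median and highest library of 10.1, 15.4 and 27.0, and in other cells it stood at 0.309, 0.459 and 0.595. *Lrmp* had 3.93, 7.78 and 12.8 against 0.0418, 0.117 and 0.294, and *Rgs13* 2.11, 4.94 and 9.30 against 0.0184, 0.0395 and 0.147. For these genes the lowest library of *Trpm5*-positive cells lay above the highest library of other cells.

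*Avil* had 1.49, 3.57 and 5.94 UMIs per 10000 in *Trpm5*-positive cells against 0.0137, 0.0489 and 0.0934 in other cells, and *Alox5ap* 2.62, 3.26 and 6.73 against 0.0165, 0.0470 and 0.0560. *Pou2f3* was lower throughout, with 0.182, 0.731 and 0.946 against 0.0342, 0.0677 and 0.123. *Gnat3* had 0.0364, 1.63 and 2.33 against 0.00209, 0.00564 and 0.0164, and *Il25* 0.291, 0.460 and 1.28 against 0.00388, 0.0151 and 0.0605. The levels of the classes did not overlap between libraries for any of the 8 genes, beside 4.3% of the 8808 genes tested that lay higher without overlap. Since 6 of the 8 stood under 10 CPM in other cells and passed the filter through the *Trpm5*-positive class, that count is no support by itself, and *Gnat3* in the lowest library rested on 1 cell. For each of the 8 genes anti-RANKL week 6, the shallowest library, was the lowest of the *Trpm5*-positive values. Of its 43 *Trpm5*-positive cells, 14 held at least 3 of the 8 genes, against 49 of 85 in isotype control week 2 and 50 of 70 in the *Aire* trace. As medians over the libraries the ratio of *Trpm5*-positive to other cells was 124 for *Rgs13*, 99.5 for *Alox5ap*, 96.7 for *Avil*, 94.2 for *Lrmp*, 30.2 for *Gng13* and 8.22 for *Pou2f3* in 7 libraries, 26.8 for *Il25* in 6, and 144 for *Gnat3* in the 3 libraries whose other cells held more than 3 UMIs.

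The comparison across genes used UMIs summed per library and class, as log2 of CPM plus 10 (100 CPM is 1 UMI per 10000), with limma, the library as a block and Benjamini-Hochberg adjustment over all genes with a mean of at least 10 CPM. Gated cells were first compared with other cells. Of the 8 genes, 7 passed the filter and were higher in gated cells in 7 of 7 libraries, beside 7.27% of the 8556 genes tested that were called higher. Of these 7, *Gng13* and *Lrmp* stood above 10 CPM in the other cells too, so 5 passed through the class in which they were high and their count is no support by itself. *Il25* did not pass the filter.

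The largest differences were those of *Lrmp* (log2 difference 3.29, SE 0.17, limma adjusted p = 1.26e-06), *Rgs13* (3.22, SE 0.15, adjusted p = 5.82e-07), *Alox5ap* (3.07, SE 0.14, adjusted p = 5.82e-07) and *Gng13* (3.05, SE 0.09, adjusted p = 1.84e-08). *Avil* followed at 2.80, SE 0.07, with an adjusted p of 6.40e-09, then *Gnat3* at 1.77, SE 0.25, with 0.00188, and *Pou2f3*, the transcription factor, at 0.83, SE 0.09, with 0.00035. The median over all genes tested was 0.02. Without the filter on low genes *Il25* was 1.00 higher (SE 0.17, limma adjusted p = 0.0242). The gate genes themselves stood at 60.5 CPM (*Trpm5*) and 184 CPM (*Dclk1*) in gated cells and, by the gate, at 0 in other cells. The added value of 10 CPM understates the change of low genes such as *Gnat3*, which stood at 31.2 CPM in gated and 0.693 in other cells.

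The gated cells were then divided by *Trpm5*. All 8 genes were higher in *Trpm5*-positive than in *Dclk1*-only cells, in 7 of 7 libraries, beside 16.1% of the 8719 genes tested that were called higher, and 3 of the 8 stood under 10 CPM in *Dclk1*-only cells. *Lrmp* differed by 4.80 (SE 0.40, limma adjusted p = 1.25e-05), *Gng13* by 4.40 (SE 0.35, adjusted p = 9.32e-06), *Rgs13* by 4.14 (SE 0.38, adjusted p = 2.15e-05), *Avil* by 4.07 (SE 0.33, adjusted p = 9.82e-06) and *Alox5ap* by 3.99 (SE 0.40, adjusted p = 3.56e-05). *Gnat3* differed by 3.14 (SE 0.45), *Il25* by 2.27 (SE 0.23) and *Pou2f3* by 2.14 (SE 0.20), with limma adjusted p of 0.000462, 3.56e-05 and 2.38e-05. The median over all genes was 0.02. *Dclk1* itself, a gate gene, stood at 295 CPM in the *Trpm5*-positive and 155 CPM in the *Dclk1*-only sums. At 2000 UMIs per cell the classes were drawn again from the thinned counts, so depth and the choice of cells changed together. There the 8 genes were still called higher, by 1.62 (*Gnat3*) to 2.66 (*Gng13*), beside 5.47% of the 8925 genes tested. *Lrmp* differed by 2.58, and *Dclk1* stood at 666 and 668 CPM.

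A comparison added after the values had been seen set *Dclk1*-only cells against other cells. Of the 5 genes that passed the filter there, 1 was called, *Rgs13* (log2 difference 0.84, SE 0.23, limma adjusted p = 0.0489, higher in 7 of 7 libraries), beside 5.1% of the 8414 genes called higher. *Rgs13*, *Alox5ap* and *Avil* stood under 10 CPM in other cells and passed the filter through the *Dclk1*-only class, and neither of the other two was called. The log2 difference of *Alox5ap* was 0.82 (SE 0.35, limma adjusted p = 0.173), of *Avil* 0.50 (SE 0.23, adjusted p = 0.193), of *Gng13* 0.46 (SE 0.27, adjusted p = 0.314) and of *Lrmp* 0.34 (SE 0.30, adjusted p = 0.519). These 4 did not pass the test, and each was higher in 4 or 5 of 7 libraries. The 3 genes that did not pass the filter had median ratios of *Dclk1*-only to other cells under 1, at 0.813 for *Pou2f3* in 7 libraries, 0.816 for *Il25* in 6 and 0.413 for *Gnat3* in 3. With *Trpm5* alone as the gate, against cells with neither gate gene, the 8 genes were higher in 7 of 7 libraries, by 2.10 (*Pou2f3*) to 5.14 (*Lrmp*), beside 14.5% of the 8808 genes tested that were called higher, but 6 of the 8 stood under 10 CPM in cells with neither and passed through the *Trpm5*-positive class.

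**Figure D3:**
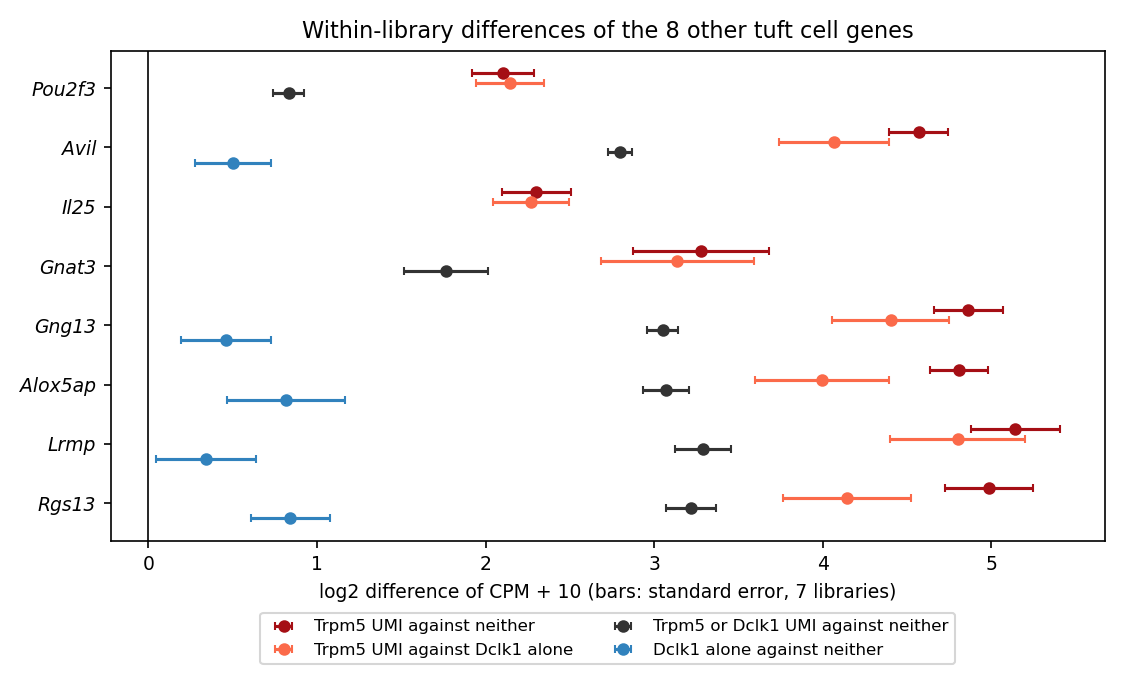
Log2 difference of CPM plus 10 (x axis) for 8 genes in 4 comparisons within libraries, with points for the mean over 7 libraries and bars for the standard error. The differences of *Trpm5*-positive cells, against *Dclk1*-only cells or against cells with neither gene, lie between 2.10 and 5.14, and *Dclk1* alone against neither lies between 0.34 and 0.84 for the 5 genes that passed the filter there. A gene that did not pass has no point.

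Other genes of the pathway were then counted. Of 17 taste transduction genes, 6 could be tested, of which 4 were higher in gated than in other cells and none lower, beside 7.27% of all genes tested. These 4 stood under 10 CPM in other cells and passed the filter through the gated class. All 6 were higher in *Trpm5*-positive than in *Dclk1*-only cells, beside 16.1% of all genes, with a median log2 difference of 2.37. Of these 6, 5 stood under 10 CPM in *Dclk1*-only cells and so passed the filter through the class in which they were high. *Gnb3*, the beta subunit that pairs with *Gng13* in taste cells, differed by 4.31 (SE 0.38, limma adjusted p = 1.64e-05), the phospholipase *Plcb2* by 2.86 (SE 0.21, adjusted p = 7.43e-06) and the bitter receptor *Tas2r105* by 2.82 (SE 0.33, adjusted p = 0.0001). *Itpr3*, the calcium release channel of taste cells, differed by 0.88 (SE 0.18, limma adjusted p = 0.00348) between these classes and by -0.05 (adjusted p = 0.642) between gated and other cells. The other 11 genes of the list, most of them taste receptors, did not pass the filter.

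Of 15 transcription factors and regulators of tuft cells, 8 could be tested and 7 were higher in gated than in other cells, beside 7.27% of all genes and with 2 of the 8 under 10 CPM in other cells. All 13 that could be tested were higher in *Trpm5*-positive than in *Dclk1*-only cells (median 1.76), beside 16.1% of all genes tested. Of the 13, 6 stood under 10 CPM in *Dclk1*-only cells and had to differ to pass, and the 7 at or above it in both classes were all called. The 13 include *Hmx2* (1.76, SE 0.23, limma adjusted p = 0.00022), *Hmx3* (1.25, SE 0.20, adjusted p = 0.000992), *Ascl2* (2.04, SE 0.20, adjusted p = 3.06e-05) and *Spib* (1.05, SE 0.17, adjusted p = 0.00113), all DNA-binding factors. *Chat*, the enzyme that makes acetylcholine, was 1.66 higher (SE 0.16, limma adjusted p = 3.20e-05), at 24.2 against 0.463 CPM. The phosphatase *Ptpn6*, better known from blood cells, differed by 2.43 (SE 0.18, limma adjusted p = 7.43e-06).

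In a list of 15 genes of leukotriene and prostaglandin metabolism, where *Alox5ap* acts, and of type 2 cytokines and their receptors, 6 of 11 testable genes were higher in gated cells and none lower, beside 7.27% and 4.27% of all genes. Of the 11, 3 stood under 10 CPM in other cells, and 3 of the 8 at or above it in both classes were called higher. Between *Trpm5*-positive and *Dclk1*-only cells 9 of 14 were higher and 1 lower (median 1.03), beside 16.1% and 11.1% of all genes. Of the 14, 4 stood under 10 CPM in *Dclk1*-only cells, and 5 of the other 10 were called higher. *Alox5*, the lipoxygenase that FLAP serves, differed by 2.43 (SE 0.18, limma adjusted p = 7.43e-06), leukotriene C4 synthase *Ltc4s* by 3.53 (SE 0.31, adjusted p = 1.63e-05), and the prostaglandin enzymes *Ptgs1* and *Hpgds* by 2.86 (SE 0.21, adjusted p = 7.43e-06) and 2.22 (SE 0.16, adjusted p = 6.61e-06). *Ptgs2*, the inducible form, differed by -0.06 (SE 0.19, limma adjusted p = 0.85). *Hpgd*, which breaks prostaglandins down, fell by 1.21 (SE 0.17, limma adjusted p = 0.000347) although it was 0.36 higher (SE 0.07, adjusted p = 0.0145) in gated than in other cells. *Il17rb*, a subunit of the receptor for the product of *Il25*, was 1.47 higher (SE 0.21, limma adjusted p = 0.000442), and the cytokine gene *Il10* 2.45 higher (SE 0.25, adjusted p = 3.73e-05).

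Of 10 cytoskeletal and signalling genes of tuft cells, 6 of 9 were higher in gated cells, beside 7.27% of all genes, where 3 of the 9 stood under 10 CPM in other cells and 3 of the other 6 were called. In *Trpm5*-positive against *Dclk1*-only cells 8 of 8 were higher (median 2.80), beside 16.1% of all genes and with 3 of the 8 under 10 CPM in *Dclk1*-only cells, among them the actin bundler *Espn* (3.11, SE 0.19, limma adjusted p = 3.89e-06) and the adaptors *Sh2d6* (3.66, SE 0.29, adjusted p = 9.82e-06) and *Sh2d7* (2.85, SE 0.19, adjusted p = 5.86e-06). Outside the 10 genes, among genes with at least 50 CPM in the higher class, those with the largest differences upward between gated and other cells included *Ly6g6f* (2.79), *Gnb3* (2.58), *Mctp1* (2.38), *Nrgn* (2.26), *Sh2d6* (2.25), *Plac8* (2.23), *Ptpn18* (2.11), *Ltc4s* (1.93) and *Plk2* (1.69), each higher in 7 of 7 libraries with a limma adjusted p of at most 0.000606. Downward they were *Pth* (-2.39), *Saa3* (-1.24), *S100g* (-1.22), *Mt3* (-1.22) and *Fabp9* (-1.16), with limma adjusted p of up to 0.0324, and *Pth* encodes parathyroid hormone. All of these genes were picked by the size of the difference, so their calls are no support by themselves. Of the upward ones, *Ly6g6f*, *Gnb3*, *Mctp1*, *Nrgn* and *Sh2d6* stood under 10 CPM in other cells and passed the filter through the gated class.

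Genes of other TEC types moved with the gate as well. All 6 genes of the *Ccl21a*-high TEC list were lower in *Trpm5*-positive than in *Dclk1*-only cells, beside 11.1% of the 8719 genes tested, with the chemokine *Ccl21a* at -1.98 (SE 0.29, limma adjusted p = 0.000497) and the basal keratins *Krt5* at -1.67 (SE 0.25, adjusted p = 0.000543) and *Krt14* at -1.57 (SE 0.13, adjusted p = 1.25e-05). In *Dclk1*-only cells against other cells, 5 of the same 6 were higher, beside 5.1% of the 8414 genes tested. Summed over the list, *Dclk1*-only cells held 86.4 to 310 UMIs per 10000 across the libraries (median 202), other cells 31.4 to 219 (median 151) and *Trpm5*-positive cells 8.96 to 136 (median 91.0). Between gated and other cells 4 of 6 genes of the *Aire*-positive list and 5 of 6 of the cortical TEC list were lower, beside 4.27% of the 8556 genes tested, and 4 of 6 genes of cycling cells higher, beside 7.27%. In *Dclk1*-only against other cells 4 of the 6 cycling genes were higher too, beside 5.1%. With *Trpm5* alone as the gate no cycling gene was called. There 6 of 6 *Aire*-positive and 2 of 6 cortical genes were lower, beside 837 of the 8808 genes tested. The part of these lists in the differences of the tuft cell genes was not tested.

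Markers of leukocytes were then summed in the *Trpm5*-positive cells without *Ptprc*. The T cell list summed to 0.129 to 0.546 UMIs per 10000 (all 10 genes detected) against 8.56 to 49.7 in the T cells and 0.307 to 0.520 in other cells, and the B cell list to 0.182 to 0.845 (5 of 5 genes detected) against 0.0621 to 0.358 in other cells. The mast cell and basophil list summed to 0.218 to 0.567 (4 of 6 detected, *Cpa3* and *Mcpt8* at 0) against 0.0414 to 0.413, and the dendritic cell and macrophage list to 0.228 to 5.05 (10 of 10) against 0.653 to 7.38. Against *Dclk1*-only cells, the B cell gene *Cd79b* was 1.43 higher (limma adjusted p = 0.000285) and *Kit*, a receptor of mast cells, 1.25 higher (adjusted p = 0.000556), each the only testable gene of its list, beside 16.1% of all genes called higher. *Cd79b* stood under 10 CPM in *Dclk1*-only cells and passed the filter through the class in which it was high, and none of the 10 T cell genes passed the filter. Their part in the differences above was not tested.

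The gate on *Ptprc* turned out to bear on these cells directly. Of 635 cells with a *Trpm5* UMI in all libraries, 14.2% (11.6 to 17.1) also had *Ptprc*, against 1.83% (1.54 to 2.15) of 7818 cells without *Trpm5*. By library the share was 29.3% of 99 cells in the *Aire* trace, 8.60% of 93 and 4.08% of 49 in the isotype controls of weeks 2 and 10, and 14.1% of 184, 9.38% of 64, 4.44% of 45 and 16.8% of 101 in anti-RANKL weeks 2, 4, 6 and 10. It was higher with than without *Trpm5* in each library, though in isotype control week 10 and anti-RANKL week 6 it rested on 2 cells each. At 2000 UMIs per cell the shares were 8.90% of 292 and 0.764% of 7984, and in isotype control week 10 none of 17 *Trpm5* cells had *Ptprc*, a count of 0 that allows up to 17.6%.

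**Figure D4:**
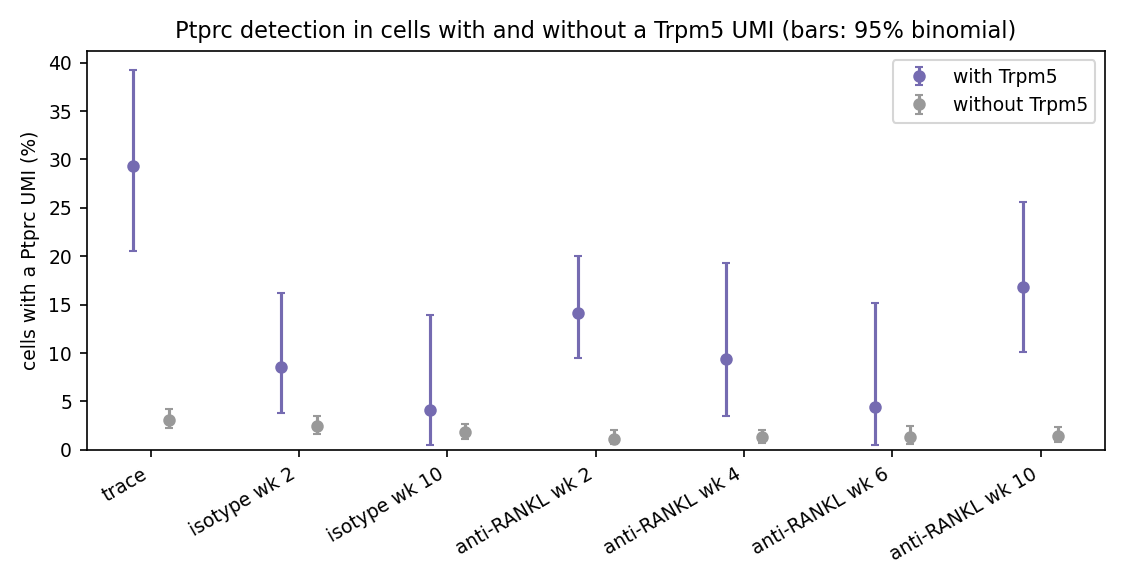
Percent of cells with a *Ptprc* UMI (y axis) among cells with and without a *Trpm5* UMI in each library, with exact binomial 95% intervals as bars. The share with *Trpm5* lies between 4.08% and 29.3% and the share without between 1.16% and 3.11%.

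The 90 cells with *Trpm5* and *Ptprc* held the tuft cell genes at least as often as those without *Ptprc*. At least 3 of the other 8 genes were found in 97.8% of them (88 cells, 92.2 to 99.7), against 60.9% (56.7 to 65.0) of the 545 *Trpm5*-positive cells without *Ptprc*, at median depths of 9572.5 and 9808 UMIs. A UMI of *Cd3e*, *Cd3d* or *Cd3g* was in 7 of the 90, and in 66 of the 143 cells with *Ptprc* and no *Trpm5*. Of those 143, 5 held at least 3 of the 8 genes. In the 90 cells the epithelial list summed to 34.4 to 61.8 UMIs per 10000 across the libraries. The dendritic cell and macrophage list summed to 0.476 to 14.6 (median 1.36; 6 of 10 genes detected, *Itgax*, *Flt3*, *Xcr1* and *Siglech* at 0), against at most 7.38 in other cells. The mast cell and basophil list summed to 0 to 2.81 (median 0.907; 2 of 6 detected, *Cpa3*, *Ms4a2*, *Fcer1a* and *Cma1* at 0), against at most 0.413. The T cell list summed to 0 to 3.44 (median 0.620; 10 of 10 detected), against at most 0.520, and the B cell list to 0 to 1.47 (median 0.757), against at most 0.358. No doublet caller was run, the study's methods set an upper limit on the genes per cell, and the part of doublets and of the leukocyte genes in this was not tested. With *Trpm5* alone as the gate and *Ptprc* left out of the rule, chosen after the values had been seen, all 8 genes were called higher, beside 17.2% of 8835 genes, and *Ptprc* itself was 0.69 higher (SE 0.17, limma adjusted p = 0.013) in 6 of 7 libraries. *Ptprc* and 6 of the 8 genes stood under 10 CPM in the cells without *Trpm5* or *Dclk1* and passed the filter through the *Trpm5*-positive class.

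The time course was read first as the share of cells. Gated cells made up 24.7% (22.2 to 27.3) of the cells in isotype control week 2 and 16.8% (14.7 to 19.0) in week 10, against 45.7% (42.8 to 48.6), 24.9% (22.7 to 27.2), 18.4% (15.6 to 21.4) and 19.5% (17.3 to 21.9) in anti-RANKL weeks 2, 4, 6 and 10, and 30.3% (27.9 to 32.9) in the *Aire* trace. Anti-RANKL week 2 stood above the other libraries. At 2000 UMIs per cell the shares were 8.71% and 5.39% in the controls, 15.0%, 13.3%, 9.04% and 9.21% after anti-RANKL and 11.2% in the trace, so week 4 moved near week 2. Most gated cells carried *Dclk1* alone, both before thinning (1606, beside 545 with *Trpm5*) and after it (586, beside 266). *Dclk1* was in 26.0% of the T cells before thinning and in none of 32 after it, which allows up to 9.38%.

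*Trpm5* gave smaller shares with another order. *Trpm5*-positive cells were 7.53% (6.06 to 9.23) and 3.77% (2.78 to 4.98) of the cells in the controls, 13.3% (11.5 to 15.4), 4.00% (3.05 to 5.14), 5.98% (4.36 to 7.97) and 7.17% (5.76 to 8.80) in anti-RANKL weeks 2, 4, 6 and 10, and 5.31% (4.16 to 6.66) in the trace. Week 2 was the highest of the anti-RANKL libraries and week 4 the lowest, and the intervals of weeks 4 and 6 overlap, as do those of weeks 6 and 10. At 2000 UMIs per cell they were 3.57% and 1.35% in the controls, 5.88%, 2.37%, 2.86% and 3.77% after anti-RANKL, and 3.01% in the trace, with the 3 later time points overlapping in their intervals.

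Co-detecting cells, which use neither gate gene, were 6.91% (5.50 to 8.55) and 3.13% (2.23 to 4.25) of the cells in the controls, 10.9% (9.18 to 12.8), 3.58% (2.69 to 4.67), 3.06% and 7.68% in anti-RANKL weeks 2, 4, 6 and 10, and 4.78% (3.69 to 6.07) in the trace. Thinned, they were 4.01% (2.95 to 5.31) and 2.38% (1.61 to 3.38) in the controls, 7.12% (5.73 to 8.72), 2.74% (1.94 to 3.76), 2.41% (1.38 to 3.88) and 5.44% (4.22 to 6.88) after anti-RANKL, and 4.62% in the trace. At both depths weeks 2 and 10 of anti-RANKL stood above the control of the same week, by ratios of 1.58 and 2.46 before thinning, and weeks 4 and 6 lay near the week 10 control. With 1 pool of 3 thymi per condition, the treatment and the pool cannot be told apart.

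**Figure D5:**
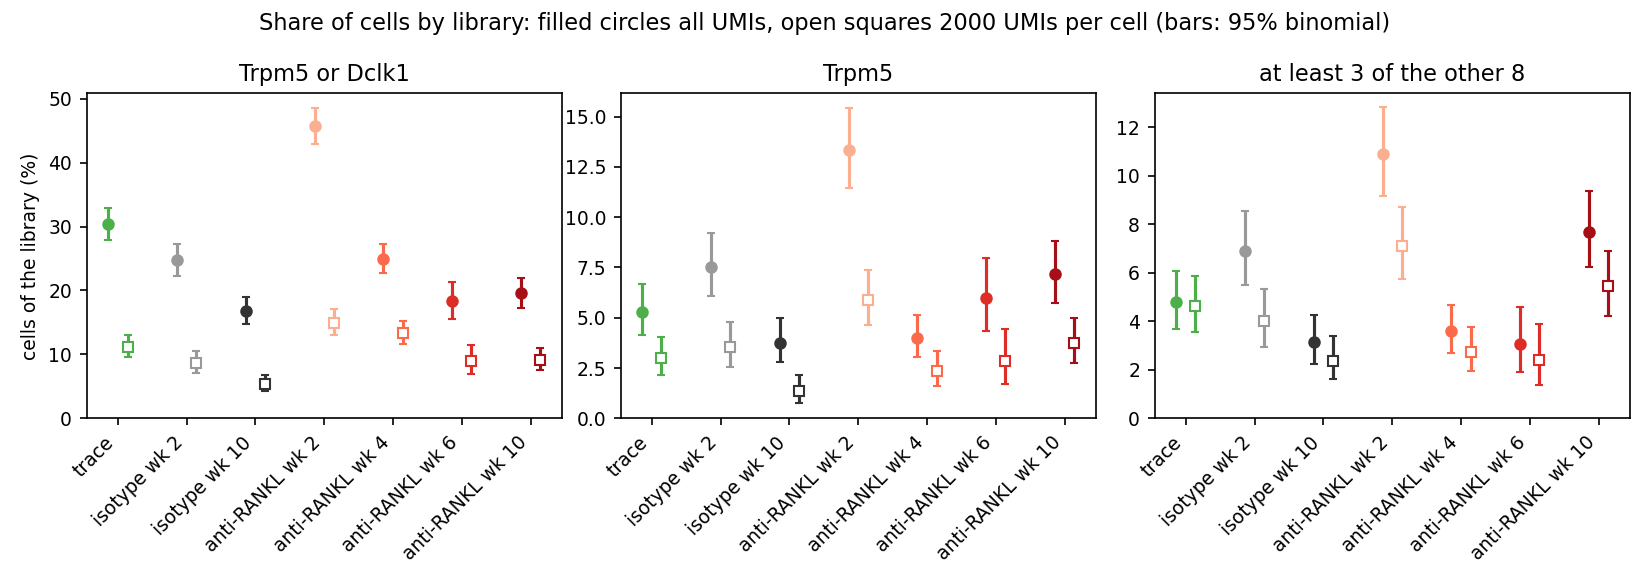
Percent of cells without *Ptprc* (y axis) in each library with a UMI of *Trpm5* or *Dclk1*, with a *Trpm5* UMI, and with at least 3 of the 8 other genes, before thinning (filled circles) and at 2000 UMIs per cell (open squares), with exact binomial 95% intervals. Anti-RANKL week 2 is the highest library in all 3 panels at both depths.

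Within gated cells the summed level of the 8 genes was 9.31 and 9.29 UMIs per 10000 in the controls of weeks 2 and 10, 11.9, 10.4, 9.42 and 15.6 in anti-RANKL weeks 2, 4, 6 and 10, and 9.03 in the trace, against 0.525 to 1.24 in other cells. Before thinning anti-RANKL week 10 was highest, and in it *Trpm5* was also found in the largest share of gated cells (36.7%, against 16.1% at week 4). Thinned to 2000 UMIs per cell, the gated sums were 44.1 and 31.8 in the controls, 44.5, 20.9, 22.9 and 43.7 after anti-RANKL and 31.9 in the trace, so week 10 no longer stood apart from week 2 of either treatment. In *Trpm5*-positive cells alone the sums were 34.6 and 42.1 in the controls, 38.6, 64.1, 20.8 and 32.3 after anti-RANKL and 47.1 in the trace. There week 4 was highest and week 6 lowest, so the order of the libraries depends on which gate gene is used.

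At 2000 UMIs per cell, where a single UMI is 5 per 10000 in its cell and picks richer cells, the *Trpm5*-positive sums drew together. They were 86.7 and 82.6 in the controls, 83.7, 80.0, 55.3 and 72.1 after anti-RANKL, and 78.5 in the trace. Week 6 stayed the lowest, on 19 cells. In co-detecting cells, by contrast, the thinned sum of week 6 (103) lay between those of the other libraries (84.6 to 111). So did its unthinned sum (64.0, against 39.2 to 86.4).

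By gene, *Gng13* in *Trpm5*-positive cells had 14.8 and 15.7 UMIs per 10000 in the controls and 15.4, 27.0, 10.1 and 11.7 in anti-RANKL weeks 2, 4, 6 and 10. *Lrmp* had 6.35 and 9.79 in the controls and 7.78, 12.8, 3.93 and 6.84 after anti-RANKL. *Alox5ap* had 3.26 and 3.16 in the controls and 3.00, 6.10, 2.62 and 3.83 after anti-RANKL. Week 4 was the highest of the time points and week 6 the lowest for each of the 3, as for *Avil* (5.94 and 1.49) and *Rgs13* (9.30 and 2.11).

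*Gnat3* stood out at week 6, where it was found in 1 of 43 *Trpm5*-positive cells (2.33%) against 20.2 to 35.7% in the other 6 libraries, and in 13.6% of 22 co-detecting cells against 26.7 to 41.3%. Thinned, it was in none of 19 *Trpm5*-positive cells at week 6, which allows up to 15.8%, and in 11.1 to 29.4% elsewhere. *Il25* was lowest there as well, at 4.65% of *Trpm5*-positive cells against 17.2 to 25.9%, but not after thinning, at 10.5% against 2.44 to 24.4%. *Pou2f3* was in 11.6% of *Trpm5*-positive cells at week 6 against 32.8 to 52.9%, and thinned in none of the 19 there against 21.9 to 36.6%. Week 6 was the library with the fewest cells and the lowest depth, and its treatment, pool and depth cannot be told apart.

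In the *Aire* trace the reporter, listed as GFP, was found in 81.0% (51 of 63, 69.1 to 89.8) of co-detecting cells and 70.0% (57.9 to 80.4) of *Trpm5*-positive cells, against 45.8% (40.3 to 51.3) of *Dclk1*-only cells and 47.3% (44.0 to 50.6) of other cells. It was also in 13 of 20 T cells (65.0%, 40.8 to 84.6), at a median depth of 11762 UMIs against 10967 in co-detecting cells, so the unthinned share of the co-detecting cells overlaps that of the T cells. At 2000 UMIs per cell it was in 38.1% of 63 co-detecting, 34.1% of 41 *Trpm5*-positive, 13.4% of 112 *Dclk1*-only and 21.4% of 1211 other cells, and in none of 9 T cells, which allows up to 33.3%. *Aire* itself had a UMI in 20.6% of the co-detecting and 22.4% of the other cells before thinning, and in 1.59% (1 of 63) and 12.0% after it. The cells that share the tuft cell genes thus carried the reporter more often than *Dclk1*-only cells at both depths, in 1 library of 3 pooled thymi and with no test.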

How the data were processed

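Droplet scRNA-seq libraries were made from EpCAM+ CD45- sorted thymic cells. Per the labels, the authors processed reads with Cell Ranger 2.2.0 (mm10) and Seurat 2.3.4, and deposited 1 table of genes by cells for each library, whose values are the natural log of 1 plus UMI counts scaled within each cell. The scaled counts summed to 10000 per cell, while the methods state another scale factor. Whole UMI counts were recovered from these steps within a tolerance of 0.001. The 2 combined tables, with 10760 columns of cells, were not used. Cells were taken as deposited, and no doublet caller was run.

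Cells without a *Ptprc* UMI were classed by UMIs of *Trpm5* and *Dclk1*, and UMIs were summed by library and class. Sums were compared as log2(CPM + 10) over genes with a mean of at least 10 CPM with limma 3.58.1 (R 4.3.3; lmFit and eBayes with a trend), with the library as a block and at least 10 cells of each class, and Benjamini-Hochberg adjustment at 0.05. The steps were tested on simulated data. Shares have exact binomial intervals (scipy 1.17.1, Python 3.11.15). Each condition is 1 library, so conditions were not tested. The p-values measure the spread between 7 libraries of pooled animals under differing conditions. Alternatives were the pseudocount, the filter, thinning to 2000 or 4000 UMIs, the gate, a 2-UMI threshold, the mean of deposited values and leaving out each library. The gates on *Dclk1* without *Trpm5*, and on *Trpm5* with *Ptprc* unused, were chosen after seeing the data. Genes were placed with GENCODE vM21.

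The 10 genes and the gene lists were chosen with earlier results of these data known. Named genes were the 10, the genes of the lists, and the 10 with the largest upward and 5 with the largest downward difference between gated and other cells at 50 CPM or more in the higher class. Some genes that this rule names are not reported here.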

Additional observations from a re-analysis of the deposited data

Results flagged for a closer look

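Cells with a *Ptprc* UMI lay outside the comparisons of the 10 genes, yet of the 90 of them that also carried *Trpm5*, 97.8% held at least 3 of the other 8 genes, against 3.50% of the 143 with *Ptprc* and no *Trpm5*.

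The quantities below, before thinning, lay above the isotype control at week 2 of anti-RANKL and below it at week 10. With 1 library per condition, the difference between the weeks was not tested. *Gnat3* in gated cells had ratios of 1.31 (0.555 against 0.425 UMIs per 10000) and 0.585 (0.282 against 0.482). The summed level of the 8 genes in *Trpm5*-positive cells had ratios of 1.12 (38.6 against 34.6) and 0.767 (32.3 against 42.1), but at 2000 UMIs per cell it lay below the control at both weeks (83.7 against 86.7, and 72.1 against 82.6). *Lrmp* in *Trpm5*-positive cells had ratios of 1.22 (7.78 against 6.35) and 0.699 (6.84 against 9.79). At 2000 UMIs per cell it lay below the control at both weeks, in cells with and without *Dclk1*. With *Dclk1* it had 16.25 against 18.1 at week 2 and 17.7 against 24.4 at week 10. Without *Dclk1* it had 11.3 against 16.8 and 8.68 against 15.6. No group held the 4 samples needed to look for a sample apart from the others.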

How the results depend on the processing

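Over the alternatives tried, 122 of 126 values of the 8 genes between gated and other cells kept their direction and their side of the threshold, none reversed, and 4 lost the call, all with *Dclk1* without *Trpm5* as the gate, where 1 of 5 testable genes was called. Genes that did not pass the filter under an alternative are not counted. With that gate these were *Pou2f3*, *Il25* and *Gnat3*, whose median ratios to other cells were 0.813, 0.816 and 0.413. Between *Trpm5*-positive and *Dclk1*-only cells 118 of 118 values kept their direction and their side of the threshold. The median difference of the 8 genes went from 4.03 to 2.297 at 2000 UMIs, where the classes were drawn again. Counts over all genes moved more. Between gated and other cells, 622 genes were higher and 365 lower. Leaving out 1 library gave 363 to 740 higher and 187 to 459 lower, with 363 and 187 without isotype control week 2, and 370 and 212 without anti-RANKL week 10. Higher genes numbered 343 at 50 CPM or more, 1635 with the mean of deposited values, 1273 with *Trpm5* alone as the gate and 1518 with *Ptprc* also unused. Lower genes numbered 159 without a filter, 163 at 50 CPM or more, and 837 and 1008 with those gates. Between *Trpm5*-positive and *Dclk1*-only cells, 1400 higher and 968 lower became 587 and 579 at 50 CPM or more, and 488 and 533 after thinning to 2000 UMIs, where lower calls outnumbered higher ones. Without 1 library they were 1080 to 1571 and 743 to 1130. The ratio of gated shares, anti-RANKL to control, was 1.85 at week 2 (2.49 at 4000 UMIs, 2.13 from 2 UMIs) and 1.17 at week 10 (1.71 at 2000 UMIs, 1.53 at 4000, 1.90 with *Trpm5* alone). The ratio of summed levels in gated cells was 1.28 at week 2 (1.01 at 2000 UMIs, 1.12 with *Trpm5* alone) and 1.68 at week 10 (1.37 at 2000 UMIs), and turned to 0.767 with *Trpm5* alone. The causes were not tested. No paired analysis was possible because each condition holds 1 library, and the library is already the block of every fit. Depth limits the shares: from all UMIs to 2000 per cell, *Gng13* went from 21.9% to 9.88% of cells and *Gnat3* from 2.45% to 1.31%.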
